A study of Mus musculus with 31 samples.

Results

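A set of 539 binding sites of Rad21 that were found in splenic B cells and not in a B lymphoma line is described here. The sites were chosen by peak width and overlap in the 16 Rad21 lists. Each is a peak at least 200 bp wide on an autosome of 1 unstimulated splenic Rad21 library (replicate 1). Each overlaps a peak at least 200 bp wide in all 5 other splenic Rad21 lists, and none overlaps a peak of any width in the 10 Rad21 lists of CH12F3 and i3CBEs cells. The spleen-only sites are 2.62% of the 20563 splenic sites, which are the peaks kept in all 6 splenic lists, out of 95896 peaks of that width in the defining library. Of the other splenic sites, 9704 had a kept peak in all 16 Rad21 lists (common sites) and 10320 were shared in part.

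Rad21 is a subunit of cohesin, the ring-shaped complex that extrudes loops of chromatin. NIPBL is the factor that loads cohesin onto chromatin and drives extrusion. Cohesin accumulates where CTCF stops it, and such anchors are often shared between cell types, whereas cohesin at active enhancers and promoters, where NIPBL is often found, varies more between cell types. In B cells, extrusion brings parts of the immunoglobulin heavy chain locus together for class switching, the exchange of antibody constant regions that the enzyme AID starts.

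The study profiled mature splenic B cells taken directly from C57BL/6 mice and cells of CH12F3, a mouse B lymphoma line, by ChIP-seq (sequencing of DNA bound by a protein). The cells are labelled AID-deficient, and the strain label is the same for the line. Splenic cells were either unstimulated or stimulated with anti-CD40 and IL-4 for 48 h, and the line was either unstimulated or stimulated with anti-CD40, IL-4 and TGF-β for 24 h. Splenic libraries number 3 per state for each antibody. For CH12F3, whose titles read CH12F3NCdel, there are 2 NIPBL libraries per state, 3 unstimulated Rad21 libraries and 4 stimulated ones. A derivative titled i3CBEs, a name that the labels do not expand, has 3 Rad21 libraries, stimulated like CH12F3. Spleen against CH12F3 therefore compares primary cells with a cultured line, with different stimuli and times in the stimulated state. No label states that replicates came from different mice or cultures. The p-values therefore reflect the spread among these libraries, some or all of which may be technical.

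The deposited lists hold 42659 to 1236385 Rad21 peaks and 890499 to 1332862 NIPBL peaks, with no read counts, so the depth is unknown. The lists that define absence are short. They hold 95464 to 271662 peaks in CH12F3 and 42659 to 97738 in i3CBEs, against 149409 to 1236385 in spleen. A missing peak is therefore not shown to be missing binding. Stimulated splenic Rad21 replicate 2 stood apart from the other splenic Rad21 lists, with 0.0103% of its peaks on the Y chromosome against 0.0229% to 0.0434%; without it the rule found 558 sites. Whether the splenic libraries carry the marks of B cell genes was not analysed here, because no gene annotation of mm9, the build of the files, was used. Sites are therefore given by position, counted from 1, with no gene named.

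In the defining library the spleen-only sites were as wide as other splenic sites but weaker. Their median width was 689 bp (quartiles 463 and 1106 bp, range 201 to 3368 bp), against 709 bp for partly shared and 696 bp for common sites. Their median fold enrichment over the authors' peak caller's background was 6.77 (quartiles 4.85 and 9.23). It was 8.66 for partly shared sites and 17.7 for common sites. These values come from a list that the rule used and are given as a description only. At the width limit, 4 spleen-only sites were narrower than 220 bp, with fold enrichments of 3.84 to 6.84. Another 3 peaks, at least 180 bp and under 200 bp wide, met the rest of the rule, with 2.97 to 7.58. At the limit on sharing, 333 splenic sites had a peak in exactly 1 of the 10 CH12F3 and i3CBEs lists, with a median fold enrichment of 6.28.

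No spleen-only site overlapped a Rad21 peak of the line, as the rule required, and distances to the nearest one varied. The median distance from a spleen-only site to the nearest CH12F3 or i3CBEs Rad21 peak was 1717 bp. For 196 sites (36.4%) such a peak lay within 1 kb, and for 55 none lay within 10 kb, the largest distance being 116733 bp. Distances from other positions to these peaks were not measured, so nothing is read from how near they lay. The spleen-only sites were farther from common sites, with a median of 63.4 kb against 33.9 kb for partly shared sites. Their number depends on the limits of the rule. Requiring 300 bp left 167 sites, and requiring no peak of the line within 1 kb left 343. Without stimulated splenic Rad21 replicate 1 the rule found 1447 sites, and without unstimulated replicate 3 it found 840.

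NIPBL was measured in libraries that the rule did not use. The question was whether the loader is also found at these sites in spleen and is missing there in CH12F3. Because lists differ in length, only the 20000 peaks with the highest -log10 p in each list, called top peaks here, were compared.

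Top NIPBL peaks lay at spleen-only sites in spleen and seldom in CH12F3. In unstimulated spleen 31.0%, 22.1% and 19.9% of the 539 sites overlapped a top NIPBL peak in replicates 1 to 3, and in stimulated spleen 21.7%, 24.1% and 23.0%. In CH12F3 the percentages were 3.71 and 0.928 in the unstimulated libraries and 1.11 and 1.67 in the stimulated ones. Every splenic library lay above every CH12F3 library. Each library is made from many cells, so binding in fewer cells and weaker binding in each cell cannot be told apart. The means were 23.6% ± 3.88 (SD, n = 6) in spleen and 1.86% ± 1.28 (SD, n = 4) in CH12F3. The difference was 21.8 percentage points, a ratio of 12.7, with p = 0.00952 in a two-sided exact permutation test over libraries, the smallest p that 6 against 4 libraries allow. Adjusted by Benjamini-Hochberg over the 4 tests of this kind planned, exact p = 0.019. Adjusted over all 30 computed, which include comparisons that cannot fall below p = 0.1, exact p = 0.0952. The difference was 22.0 points between unstimulated and 21.6 points between stimulated libraries, where 3 against 2 cannot fall below an exact p of 0.2.

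**Figure D1:**
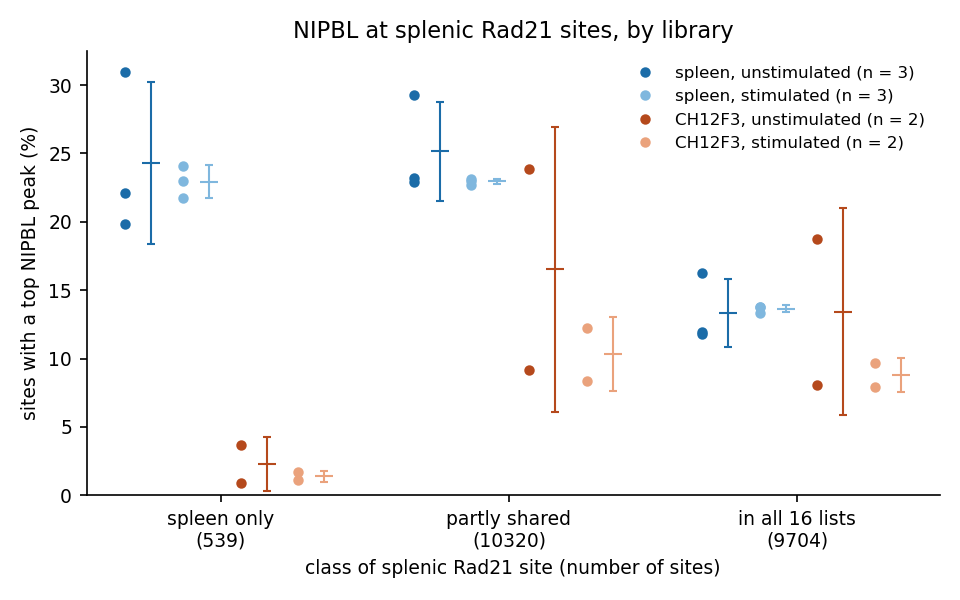
Percent of splenic Rad21 sites that overlap 1 of the 20000 strongest NIPBL peaks (y axis) for spleen-only, partly shared and common sites (x axis). Points are libraries, and dashes with bars are the group mean and SD; at spleen-only sites the splenic libraries sit between 19.9% and 31.0% and the CH12F3 libraries between 0.928% and 3.71%.

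Sites shared with the line showed a smaller mean gap. Common sites had a top NIPBL peak in 13.5% ± 1.60 (SD, n = 6) of cases in spleen and 11.1% ± 5.17 (SD, n = 4) in CH12F3, with overlapping libraries (exact permutation p = 0.314). For partly shared sites the values were 24.1% ± 2.58 (SD, n = 6) and 13.4% ± 7.18 (SD, n = 4) (exact permutation p = 0.0571). The overlap in both classes came from unstimulated CH12F3 replicate 1, at 18.8% of common and 23.9% of partly shared sites. Stimulated libraries did not overlap. Common sites were at 13.4% to 13.8% in spleen and 7.945% to 9.66% in CH12F3, and partly shared sites at 22.7% to 23.2% and 8.39% to 12.2%. The contrast was tested directly, as spleen-only minus common sites within each library. That value was 10.1 points in spleen and -9.26 points in CH12F3, and the difference of 19.4 points had the smallest possible p (two-sided exact permutation, p = 0.00952; adjusted over the 4 planned tests, 0.019). Against partly shared sites the corresponding difference was 11.1 points (exact permutation p = 0.00952, adjusted over all 30 tests 0.0952). A splenic site thus carried a top NIPBL peak in spleen about as often when spleen-only (23.6%) as when partly shared (24.1%), and less often in CH12F3.

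The width of the peaks moves with this result. The top peaks of the 6 splenic NIPBL lists covered 11.5 to 15.5 Mb, and those of 3 CH12F3 lists 5.09 to 7.80 Mb. With the strongest peaks of each list taken up to the same covered length, the difference was 5.88 points (exact permutation p = 0.00952). Unstimulated CH12F3 replicate 1 had wider top peaks than any splenic list, covering 17.0 Mb, and had 3.71% of spleen-only sites and 18.8% of common sites. Peak names in the CH12F3 lists of replicate 2 hold an input library and those of all other NIPBL lists do not. The CH12F3 values were 1.11% and 3.71% in the replicate 1 lists and 0.928% and 1.67% in the replicate 2 lists. With replicate 1 alone the difference was 21.2 points, and with replicate 2 alone 22.3 points (exact permutation p = 0.0714 for each, the smallest that 6 against 2 allow).

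With all deposited NIPBL peaks, 72.0% to 84.0% of the spleen-only sites had a peak in the splenic lists, and 59.7% to 69.6% had one in the CH12F3 lists. The difference was 15.7 points (exact permutation p = 0.00952). Most spleen-only sites thus carried some NIPBL peak in the line as well, and so did other splenic sites. The CH12F3 lists had one at 73.2% to 81.3% of partly shared and 73.65% to 81.0% of common sites. In the splenic lists these ranges were 69.4% to 78.5% and 63.5% to 73.6%. Overlap by chance was not measured, so nothing is read from the height of a share alone.

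NIPBL in CH12F3 was also graded by how many Rad21 lists of the line had a peak at the site. The number of lists comes from the rule, and these means are a description with no test. In CH12F3, top NIPBL peaks lay at 1.86% of sites with a peak in none of the 10 lists, 3.90% with 1, 9.57% with 3, 15.4% with 5 and 22.5% with 8. In spleen the corresponding values were 23.6%, 19.8%, 25.8%, 33.8% and 37.0%. Sites with a peak in all 10 lists were low in both, at 10.8% and 14.6%. The spleen-only sites are the low end of a gradual series in CH12F3 and lie in the middle of the range in spleen.

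**Figure D2:**
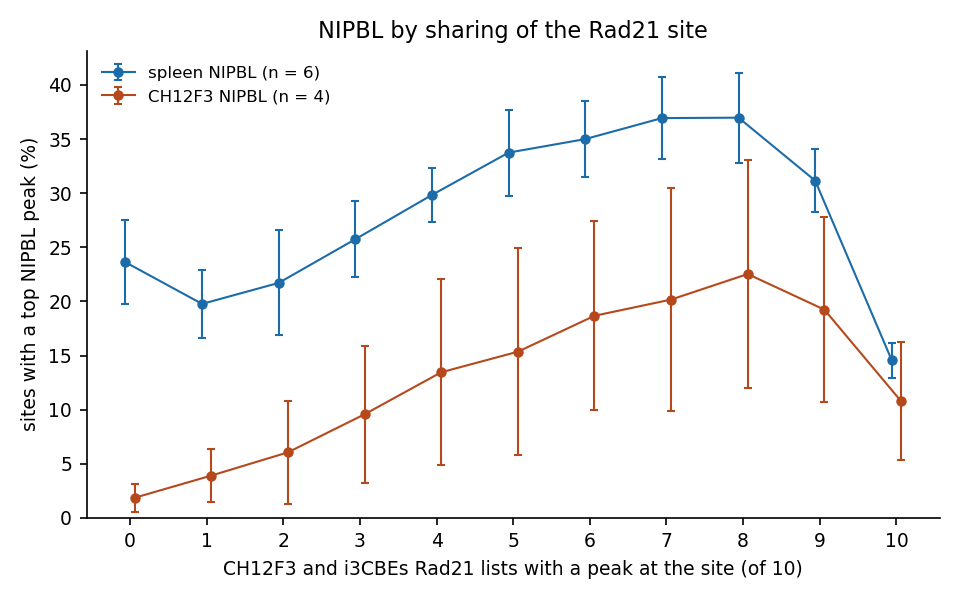
Percent of splenic Rad21 sites with a top NIPBL peak (y axis) by the number of CH12F3 and i3CBEs Rad21 lists that have a peak at the site (x axis). Points are means and bars SDs over 6 splenic and 4 CH12F3 libraries; the spleen-only sites, at 0, have means of 23.6% and 1.86%.

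Top NIPBL peaks lay on part of the sites in each class. In spleen, 313 spleen-only sites (58.1%) had a top NIPBL peak in none of the 6 libraries, 226 in at least 1 and 49 (9.09%) in all 6. The share with none was higher for partly shared and common sites, at 63.2% and 75.5%. Their shares with a peak in all 6 were 15.2% and 7.31%. A restriction to part of the sites was thus not particular to the spleen-only class. Of the 49 spleen-only sites, 40 (81.6%) had none in any of the 4 CH12F3 libraries. Of partly shared and common sites with NIPBL in all 6 splenic libraries, 6.19% and 1.83% had none in CH12F3. In CH12F3, 35 spleen-only sites had a top NIPBL peak in any library and 0 in 3 or more. The 49 sites with NIPBL in all 6 splenic libraries were weak for Rad21, with a median fold enrichment of 4.77 against 6.89 for the 313 without.

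To place the loader along the genome, the percent of each 10-kb bin covered by top NIPBL peaks was compared with limma, over all autosomal bins covered in at least 2 libraries, and calls required a Benjamini-Hochberg adjusted p under 0.05. Spleen-only sites have their centres in 519 bins, of which 253 passed that filter. NIPBL cover was higher in spleen in 35 of them and lower in 0 (1 lower at an unadjusted p under 0.05). Over all 31238 bins tested, 1.9% were higher and 0.643% lower. The 35 bins lay on 17 chromosomes, with differences of 6.04 to 57.9 points (median 14.0). In 29 the groups did not overlap, and in 20 no CH12F3 library had any cover. The filter favours bins covered in spleen: 124 of the 253 had no cover in any CH12F3 library and could only be higher in spleen. Nothing is read from the calls of such bins, the 20 among them. With all deposited peaks, where all 519 bins were tested, limma called 53 higher and 0 lower (10 lower at an unadjusted p under 0.05), against backgrounds of 0.379% and 2.37%. In 2-kb windows around the sites, limma called 72 of 180 higher, against 13.5%, and 0 lower, against 0.716%, with 0 lower also before adjustment. Without stimulated CH12F3 NIPBL replicate 1 the count was 23 of 248, with 1.25% of all bins called higher. Without unstimulated CH12F3 NIPBL replicate 1 it was 63 of 244, with 11.0% of all bins called higher.

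**Figure D3:**
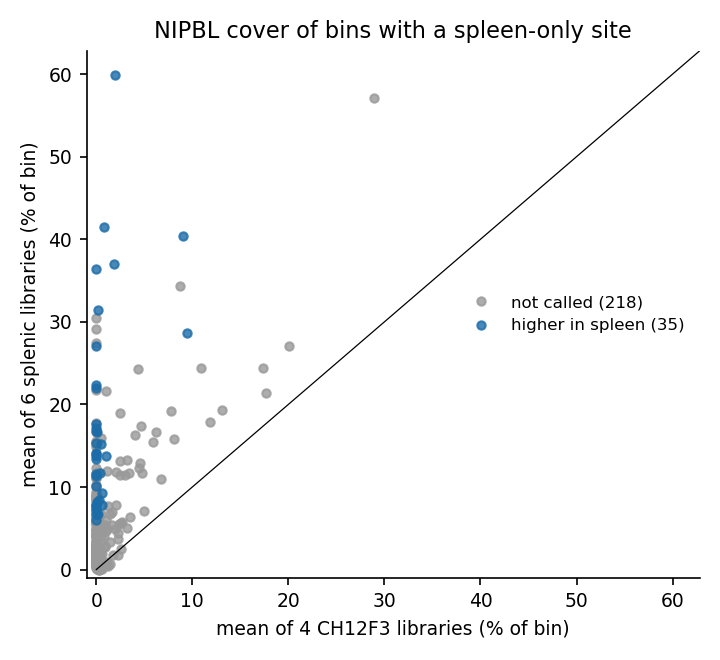
Mean percent of each 10-kb bin covered by top NIPBL peaks in 4 CH12F3 libraries (x axis) and 6 splenic libraries (y axis), for the 253 tested bins that hold the centre of a spleen-only site. Blue points are the 35 bins called higher in spleen, grey points the others, and the line marks equal values; the highest called bin is at 59.8% in spleen and 1.98% in CH12F3.

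The largest difference was at chr7:52090001-52100000, around the site chr7:52094459-52094703. NIPBL covered 30.7%, 26.2% and 21.0% of this bin in unstimulated spleen and 88.3%, 93.7% and 99.3% in stimulated spleen. In CH12F3 it covered 7.93% in stimulated replicate 1 and 0 in the other libraries. All splenic libraries lay above all CH12F3 libraries, by 57.9 points on average (SE 3.29, limma adjusted p = 0.000427).

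The second largest was at chr14:70470001-70480000, around the wide site chr14:70473688-70476816, 1 of only 4 spleen-only sites on that chromosome. NIPBL cover was 55.2%, 59.8% and 59.0% in unstimulated spleen and 26.6%, 23.5% and 24.8% in stimulated spleen. The CH12F3 values were 2.9% and 0 unstimulated and 0 and 0.51% stimulated. The difference was 40.6 points (SE 1.90, limma adjusted p = 0.000278). With all deposited peaks it was 7.54 points and was not called (limma adjusted p = 0.403).

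At chr8:74840001-74850000 NIPBL covered 24.5% to 53.9% of the bin in the 6 splenic libraries and 0 in all 4 CH12F3 libraries (limma adjusted p = 0.00458, and 0.0675, not called, when bins covered in 1 library were tested too). This bin passed the filter through the splenic libraries alone, so nothing is read from its call. At chr4:44720001-44730000 it covered 36.9% to 48.7% in spleen, and 17.4% and 18.9% in the CH12F3 lists of replicate 1 but 0 in those of replicate 2 (limma adjusted p = 0.0152). This call was lost in 2 of 16 alternatives, with 15.2 points with all deposited peaks (limma adjusted p = 0.125). At chr2:174260001-174270000, which holds 2 spleen-only sites, the ranges were 28.2% to 45.6% in spleen and 0 to 4.5% in CH12F3 (limma adjusted p = 0.00471). With equal covered length this last difference was -0.0733 points and was not called; it was also not called in 3 of the other alternatives, down to 6.59 points with all deposited peaks. Among bins with lower values in spleen, the smallest p was at chr10:19780001-19790000, where 2 CH12F3 libraries had 0.51% and spleen 0 (limma adjusted p = 0.0852).

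The 10 spleen-only sites with the strongest Rad21, by their mean rank within the 6 splenic lists, mostly lacked a top NIPBL peak. The first was chr15:91439999-91441053, with a fold enrichment of 34.6 in the defining library. Its -log10 p lay above that of 96.9% to 99.7% of the kept peaks in each splenic list. Next were chr8:95342025-95342440 (fold enrichment 34.8), chr13:110309136-110310305 (23.7) and chr4:59373338-59374483 (25.01). All 10 were top Rad21 peaks in all 6 splenic libraries. Cover of the 2 kb around the site by top NIPBL peaks was 0 in all 10 NIPBL libraries for 7 of them. It was above 0 in a single splenic library for chr8:95342025-95342440 and chr5:40028032-40031349. For comparison, 58.1% of all spleen-only sites overlapped no top NIPBL peak in any splenic library.

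The exception was chr17:43152852-43153703, 852 bp wide with a fold enrichment of 21.4. Top NIPBL peaks covered 46.7%, 49.5% and 46.3% of its 2-kb window in unstimulated spleen and 46.4%, 45.4% and 46.4% in stimulated spleen. All 4 CH12F3 libraries had 0. Its 10-kb bin was called higher in spleen, by 13.4 points (limma adjusted p = 0.00117). That bin passed the filter through the splenic libraries alone, so nothing is read from its call. The cover of this site was nearly the same in all 6 splenic libraries.

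Sites that were top Rad21 peaks in every splenic library were not richer in top NIPBL peaks than those in none. A top Rad21 peak was present in all 6 splenic libraries at 63 spleen-only sites (11.7%), against 80.6% of common sites, and in none at 242 (44.9%). Of the 63, 40 (63.5%) had no top NIPBL peak in any splenic library and 4 (6.35%) had one in all 6. Of the 242, 137 (56.6%) had none and 27 (11.2%) had one in all 6. The rule required a Rad21 peak of the set width in each of these lists but not its rank, and these counts are a description.

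The next question was whether stimulation with anti-CD40 and IL-4 moved Rad21 or NIPBL at these sites in spleen. The rule starts from an unstimulated library and requires a peak in both states, and all 6 splenic Rad21 lists were used by it. The Rad21 values by state are therefore given as a description. An exact permutation test of this contrast was computed and counts among the 4 planned tests, but nothing is read from it. The share of spleen-only sites with a top Rad21 peak was 41.4%, 33.8% and 38.8% in unstimulated replicates 1 to 3 and 24.7%, 28.6% and 20.0% in stimulated replicates 1 to 3. The groups did not overlap, at 38.0% ± 3.87 and 24.4% ± 4.27 (SD, n = 3 each). The difference was -13.5 points. Without stimulated replicate 2 it was -15.6 points. For unstimulated and stimulated spleen, partly shared sites were at 58.0% and 42.3% and common sites at 91.5% and 92.4%.

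**Figure D4:**
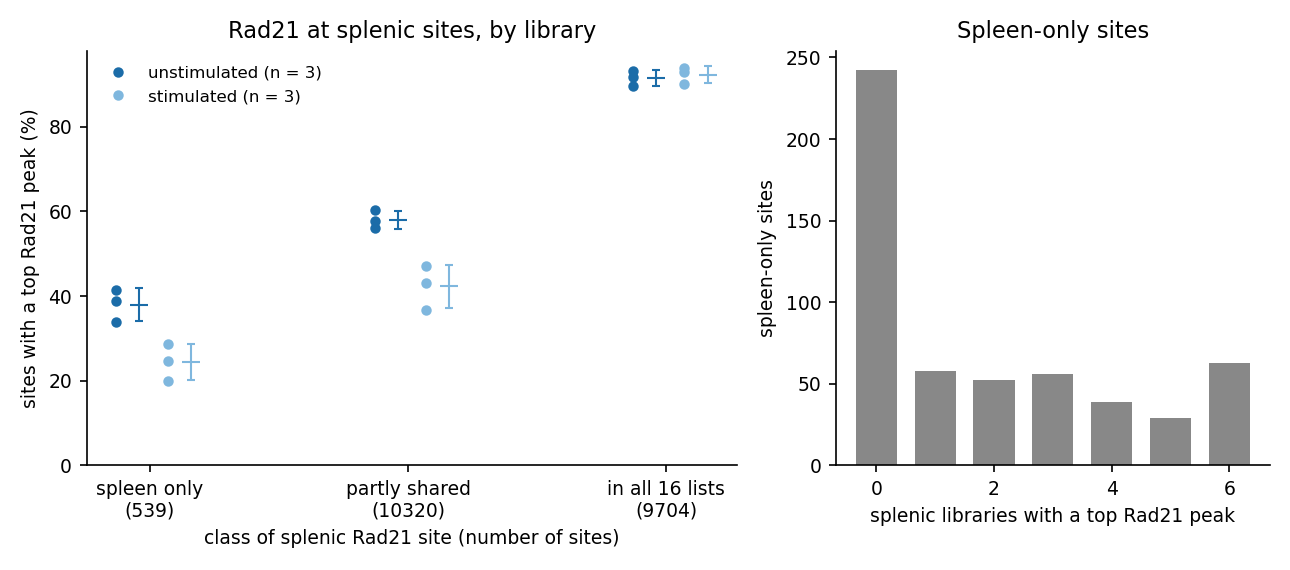
Left, percent of splenic sites that overlap 1 of the 20000 strongest Rad21 peaks (y axis) by class of site (x axis), with points for libraries and dashes with bars for the mean and SD of 3 unstimulated and 3 stimulated libraries; at spleen-only sites the unstimulated libraries lie between 33.8% and 41.4% and the stimulated ones between 20.0% and 28.6%. Right, number of spleen-only sites (y axis) by the number of splenic libraries in which they are a top Rad21 peak (x axis), from 242 sites at 0 to 63 at 6.

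Ranks in lists of unequal length and width limit this comparison. The top peaks covered 15.6, 15.2 and 8.97 Mb in the unstimulated lists and 6.95, 15.2 and 9.62 Mb in the stimulated ones. With the strongest peaks taken up to an equal covered length the difference was 0.371 points, with 10000 peaks it was -1.30 points and with 40000 peaks -25.5 points.

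By bins, 306 with a spleen-only site passed the filter for Rad21. Limma called 23 lower after stimulation, against 2.91% of all bins, and 0 higher (6 at an unadjusted p under 0.05), against 0.133%. In 20 of the 23 no stimulated library had a top peak, so that these bins passed the filter through the unstimulated libraries alone. Because of this, and because the rule used these lists, nothing is read from the count. The count depended on the setting: limma called 0 with 10000, 40000 or all deposited peaks (21, 128 and 3 lower at an unadjusted p under 0.05). It also called 0 without any single stimulated replicate (55 to 70 lower before adjustment, at a p under 0.05). Without unstimulated replicate 1 it called 14 lower, against 1.85% of all bins, and without unstimulated replicate 3 it called 59 lower, against 8.40%.

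Among the bins called lower, the 4 described next had no top Rad21 peak in any of the 3 stimulated libraries. Rad21 covered 47.9%, 36.2% and 17.1% of chr12:100880001-100890000 in unstimulated replicates 1 to 3. At chr6:48690001-48700000 it covered 38.3%, 33.0% and 24.7%, but with all deposited peaks the difference was 13.8 points in the other direction. At chr10:7550001-7560000 the unstimulated range was 26.5% to 35.6%. At chr4:32310001-32320000, which holds 2 spleen-only sites, it was 13.1% to 31.7%. A larger difference was found at chr19:44450001-44460000, a bin that limma did not call and that was added after its values were seen. Top Rad21 peaks covered 68.35%, 45.4% and 23.1% of it in unstimulated replicates 1 to 3 and none of it in the stimulated libraries.

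Of the bins with higher Rad21 values after stimulation none was called. The one with the smallest p was chr9:111820001-111830000, where top Rad21 peaks covered 6.57%, 4.3% and 3.3% in stimulated replicates 1 to 3. No unstimulated library had a top peak there, though by the rule each has a weaker-ranked Rad21 peak at the site.

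The share of spleen-only sites with a top NIPBL peak did not differ detectably with stimulation in spleen. It was 24.3% ± 5.89 unstimulated and 22.9% ± 1.21 stimulated (SD, n = 3 each; difference -1.36 points, exact permutation p = 0.9). Single bins differed in both directions. Of 222 tested, 6 were higher (background 1.66%) and 5 lower (background 1.02%), shares near those of all bins. In 4 of the 6 no unstimulated library had any cover, and in 2 of the 5 no stimulated library had any. Such bins passed the filter through 1 state alone and could differ in 1 direction only. Calls ranged from 3 to 15 higher and 3 to 10 lower when 1 library was left out, where 1.16% to 3.89% of all bins were higher and 1.02% to 1.97% lower. With the replicate number as a block, limma called 0 of all bins higher and 0 lower, so every call named below was lost.

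The bin chr7:52090001-52100000 had the largest increase in NIPBL cover, from 26.0% ± 4.87 to 93.7% ± 5.49 (SD, n = 3 each; limma adjusted p = 0.00492). NIPBL cover also rose from 0 in all 3 unstimulated libraries at chr5:119010001-119020000, to 22.5%, 18.2% and 14.7% (limma adjusted p = 0.0159). At chr2:124430001-124440000 it rose from 0 to between 12.2% and 14.6% (limma adjusted p = 0.0104). At chr7:105340001-105350000 it rose from between 0 and 0.56% to between 12.2% and 14.1% (limma adjusted p = 0.0104), and at chr13:12190001-12200000 from 0 to between 10.9% and 20.1% (limma adjusted p = 0.0374). The first 4 of these 5 bins were also among the 35 with more NIPBL in spleen than in CH12F3. Both comparisons use the stimulated splenic libraries. The bins at 0 in all unstimulated libraries passed the filter through the stimulated libraries alone, so nothing is read from their calls. The call at chr7:52090001-52100000 was lost in 1 of 13 alternatives, with the replicate number as a block (limma adjusted p = 0.19). Its difference ranged from 26.6 to 86.75 points over the alternatives. The smaller increases depended more on the setting. The call at chr13:12190001-12200000 was lost in 7 of 10 alternatives, 5 of them by leaving out a single library (limma adjusted p up to 0.226). That at chr5:119010001-119020000 was lost in 3 of 10, among them without unstimulated replicate 2 (limma adjusted p = 0.0522). With all deposited peaks the differences were 9.83 points at chr5:119010001-119020000, 6.01 at chr2:124430001-124440000 and 3.39 at chr7:105340001-105350000, and none of these was called (limma adjusted p = 0.478, 0.557 and 0.815).

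NIPBL cover fell most at chr14:70470001-70480000, from 57.95% ± 2.46 to 24.96% ± 1.53 (SD, n = 3 each; limma adjusted p = 0.00492), although with equal covered length the difference was 17.0 points upwards and was not called. It was -4.11 points with 40000 peaks and -4.85 points with all deposited peaks, and was called in neither (limma adjusted p = 0.603 and 0.723). It fell from between 14.1% and 16.9% to 0 at chr3:121070001-121080000 (limma adjusted p = 0.00886), but with all deposited peaks the difference was -0.96 points (limma adjusted p = 0.962). This bin passed the filter through the unstimulated libraries alone, so nothing is read from its call. At chr12:87300001-87310000 NIPBL cover fell from between 10.7% and 18.4% to at most 0.59% (limma adjusted p = 0.033), a call lost in 7 of 13 alternatives (limma adjusted p up to 0.551). At chr3:101090001-101100000 it fell from between 11.15% and 17.2% to at most 4.08% (limma adjusted p = 0.0444), a call lost in 9 of 12. At chr15:25750001-25760000 it fell from between 5.01% and 6.15% to 0 (limma adjusted p = 0.0176). That bin too passed the filter through the unstimulated libraries alone, so nothing is read from its call. At chr14:70470001-70480000 top Rad21 peaks covered 31.3%, 34.2% and 26.8% in unstimulated spleen and 0 in the stimulated libraries, values of lists that the rule used. By the rule the stimulated lists also have a Rad21 peak at this site, of lower rank.

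Spleen-only sites were spread over all autosomes but unevenly. They made up a median of 2.74% of a chromosome's splenic sites, with the highest share on chromosome 13 (44 of 894, 4.92%) and the lowest on chromosome 14 (4 of 708, 0.565%). Chromosomes 9 and 11 were also low, at 1.45% and 1.48%. On chromosome 14 the lists of the line hold a larger part of their peaks than the splenic lists. It took 5.97% to 7.92% of Rad21 peaks in CH12F3 and 7.05% to 8.16% in i3CBEs, against 4.13% to 4.87% in spleen. For NIPBL, 5.36% to 5.47% of CH12F3 peaks and 4.42% to 4.60% of splenic peaks lay there. On chromosome 16 the Rad21 shares were 5.73% to 7.41% in CH12F3, 3.11% to 3.40% in i3CBEs and 4.02% to 4.35% in spleen. There 2.68% of splenic sites were spleen-only. The part of the chromosome 14 shares in its low number of sites was not tested.

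**Figure D5:**
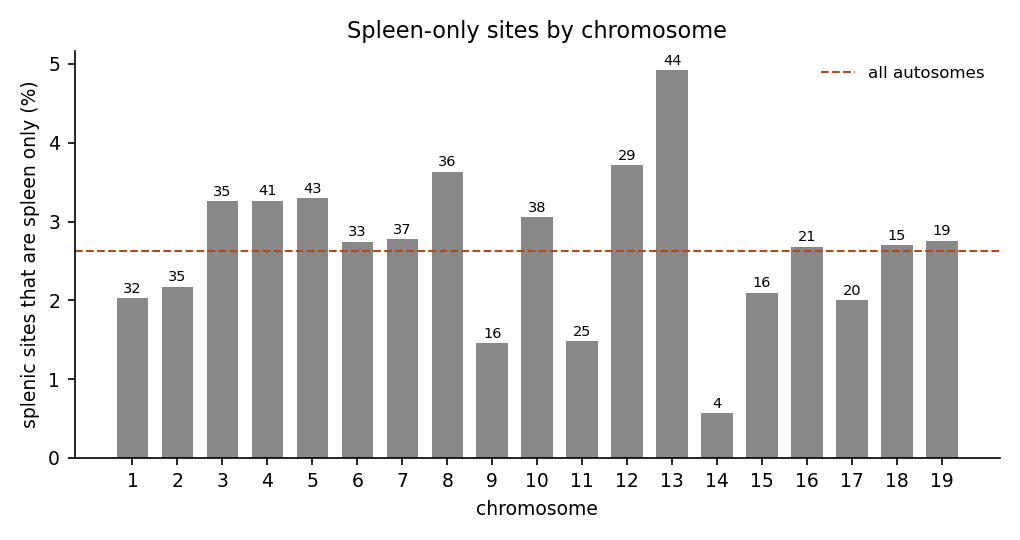
Percent of each autosome's splenic Rad21 sites that are spleen-only (y axis) by chromosome (x axis). The number above each bar is the count of spleen-only sites, and the dashed line is the 2.62% over all autosomes; chromosome 13 is highest at 4.92% and chromosome 14 lowest at 0.565%.

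Of the 539 sites, 365 had no spleen-only site next to them in the order of splenic sites along the chromosome. The longest run held 8, at chr2:173104755-173296817. All 8 splenic sites in these 192 kb were spleen-only and none was common. The splenic Rad21 lists hold 25 to 124 peaks of any width there and the lists of the line 0 to 4. NIPBL peaks were about as many in both, at 145 to 194 in the splenic and 144 to 184 in the CH12F3 lists. Top NIPBL peaks numbered 4 to 6 in spleen and 0 to 3 in CH12F3. The run is made of sites chosen for having no Rad21 peak of the line, so few such peaks follow from the choice. The NIPBL lists are also far longer than the Rad21 lists of the line, and nothing is read from the contrast.

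In the next 4 runs, chosen in the same way, the lists of the line also held few Rad21 peaks, while top NIPBL peaks varied. A run of 7 sites spanned 567 kb at chr16:76202529-76769446, with 50 to 376 Rad21 peaks in the splenic lists and 0 to 25 in the lists of the line, and with 1 to 10 top NIPBL peaks in spleen and 1 to 8 in CH12F3. A run of 6 at chr12:115604539-116220105 had 26 to 293 Rad21 peaks in spleen and 0 to 11 in the line, with 0 to 3 top NIPBL peaks in spleen and 1 to 3 in CH12F3. A run of 6 at chr13:117991439-118100713 holds 1 of the 10 strongest sites, chr13:118078068-118079062, with a fold enrichment of 30.4. It had 17 to 75 Rad21 peaks in spleen and 0 to 4 in the line, and at most 2 top NIPBL peaks in any library. At chr3:9753901-9866164, 5 sites had 29 to 104 Rad21 peaks in spleen and 0 to 2 in the line, with 2 to 5 top NIPBL peaks in spleen and 0 to 3 in CH12F3. No common site lay within any of these 5 runs.

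The densest 200-kb stretches overlapped most of these runs. Apart from the first run, they held 8 sites at chr13:117923056-118100713, 6 at chr3:9753901-9896268, 5 at chr5:65155624-65211264 and 5 at chr16:76202529-76374451. Of these stretches the one on chromosome 5 was the only one with a common site.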

How the data were processed

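The data are 26 peak lists, 1 for each NIPBL or Rad21 ChIP-seq library; 5 input libraries were not analysed here. Alignment with Bowtie2 to mm9 and peak calling with MACS2 are named per the submitters' processing notes, without versions. For each peak the authors deposited a fold enrichment (ratio), a -log10 p-value, a -log10 q-value and a score. No such value was compared between lists. The Rad21 samples of the line carry splenic B cells in their cell type label; their titles and source names, which give CH12F3 or i3CBEs, were followed.

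Peaks on the 19 autosomes were used. Sites were chosen by overlap of at least 1 base. Shares of sites with 1 of the 20000 strongest peaks (by -log10 p, ties by fold enrichment, then position) were compared by two-sided exact permutation tests over libraries; Rad21 by state, whose lists the rule used, is given as a description. Bins of 10 kb covered in at least 2 libraries were compared in limma 3.58.1 with a mean-variance trend, under R 4.3.3, adjusted over all bins tested, and checked on simulated data. Spleen against CH12F3 NIPBL used 1 fit of 4 groups; stimulation was fitted within the splenic libraries of each antibody. Python 3.11.15, numpy 2.4.6, pandas 2.3.3, statsmodels 0.14.6 and matplotlib 3.10.9 were used.

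The sites, tests and alternatives were chosen with earlier results of these data known. Named were the 10 sites with the highest mean rank of Rad21; in each bin comparison, for each direction, the 5 called bins that differed most and whose groups did not overlap, or, with no call, 3 bins by smallest p; the 5 longest runs; and the 5 densest 200-kb stretches. The bin of the site on chromosome 17 was added after its values were seen. Planned gene lists, sequences and motifs need an mm9 genome and were not analysed here. Spacing, chromosome shares and counts of libraries per site are descriptions.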

Additional observations from a re-analysis of the deposited data

Results flagged for a closer look

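Among the 6 splenic NIPBL libraries, unstimulated replicate 1 lay far from the others in the excess of spleen-only over common sites with a top NIPBL peak. It had 14.75 percentage points, and the other 5 had 7.90 to 10.3. Its gap to the nearest library was 0.645 of the range of the group, above the critical value of 0.625 for 6 libraries, which chance passes in about 1 of 20 groups. The top peaks of this library also covered the greatest length of the splenic NIPBL lists, 15.5 Mb against 11.5 to 14.6 Mb; its part in the excess was not tested. Without this library the difference between spleen and CH12F3 in this measure was 18.5 points in place of 19.4 (exact permutation p = 0.0159).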

How the results depend on the processing

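The number of spleen-only sites was 1245, 167 and 61 with a minimum width of 100, 300 and 400 bp, 160 when 50% of the peak had to be covered in the other splenic lists, 343 with no peak of the line within 1 kb and 220 with a -log10 q of at least 2. It was 542 to 1447 with 1 list left out, and 548 to 720 when defined in another splenic list. The NIPBL difference between spleen and CH12F3 at spleen-only sites stayed above 0 with an exact permutation p under 0.05 under 16 other settings, at 5.88 to 26.8 points, and so did the contrast with common sites, at 7.87 to 24.8 points. The causes of the changes below were not tested.

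With the CH12F3 lists of replicate 1 or 2 only, a choice made after seeing the data, these were 21.21 and 22.33 points, and 21.94 and 16.85 for the contrast, and exact p could not pass 0.05. The NIPBL difference with stimulation was 0.495 points with equal covered length and -3.59 to 1.98 with 1 library left out. The Rad21 difference was 0.371 points with equal covered length.

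Bins with higher NIPBL in spleen numbered 63 and 59 with 10000 and 40000 peaks (14.0% and 0.967% of all bins called higher), 53 with all peaks (0.379%), 72 in 2-kb windows (13.5%), 82 when covered in at least 4 libraries (16.6%) and 23 to 63 with 1 library left out (1.16% to 11.0%); 1 was lower with 40000 peaks and 1 with equal covered length. Bins with higher NIPBL after stimulation numbered 11 with 10000 peaks (3.21% of all bins called higher) and 1 in 2-kb windows (1.14%). They numbered 2 when covered in at least 4 libraries (0.257%) and 3 to 15 with 1 library left out (1.16% to 3.89%). Those with lower NIPBL numbered 11 and 1 with 10000 and 40000 peaks (3.91% and 0.1475% of all bins called lower). With all peaks they numbered 0 (0.0443%), with 26 at an unadjusted p under 0.05. They numbered 8 and 1 when covered in at least 1 or 4 libraries (0.3915% and 0.276%) and 3 to 10 with 1 library left out (1.02% to 1.97%). Bins with lower Rad21 numbered 0 with 10000, 40000 or all peaks or equal covered length (10 at an unadjusted p under 0.05 in the last). They numbered 4 and 3 when covered in at least 1 or 4 libraries (0.294% and 0.912% of all bins called lower) and 0 to 59 with 1 library left out (0 to 8.40%). Single bins turned to -0.0733 points (chr2:174260001-174270000) and 16.96 points (chr14:70470001-70480000, NIPBL after stimulation) with equal covered length, and to 13.76 points (chr6:48690001-48700000) with all peaks.

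Replicate numbers did not pair the libraries: deviations of same-numbered stimulated and unstimulated splenic libraries correlated at -0.104 to -0.0145 for NIPBL and -0.11 to 0.147 for Rad21, and not every library correlated best with its own number. With the replicate number as a block, 0 bins were called higher and 0 lower for NIPBL (limma; 20 and 13 at an unadjusted p under 0.05), 42 were lower for Rad21 (4.73% of all bins), and the exact permutation p of the share of sites was 1 for NIPBL.

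The depth is unknown, no list of artefact-prone regions was used, and with 3 libraries a state no exact p under 0.1 was possible. A site is absent from CH12F3 and i3CBEs only in the sense of these lists, which are shorter than most splenic ones. Values are positions in a ranking, not amounts of bound protein. For limma, leaving out a CH12F3 library leaves 1 in its state, which is assumed to vary like the other groups.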

Other observations

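The X chromosome was outside the rule. By the same overlaps, 22 of its 363 splenic Rad21 sites (6.06%) were spleen-only, a larger share than on any autosome, where the highest was 4.92%. The X took 2.61% to 5.01% of all peaks in the 6 splenic Rad21 lists and 1.97% to 5.15% in the 10 lists of CH12F3 and i3CBEs, ranges that overlap. For NIPBL it took 2.92% to 4.07% in spleen and 2.41% to 2.53% in CH12F3. Peaks on the Y made up 0.0103% to 0.0434% of the splenic Rad21 lists and 0.000559% to 0.00374% of those of the line.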
